A study of Mus musculus with 100 samples.

Results

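The comparison described here is H3K27ac in Pgc1b-deleted against Pgc1b-intact macrophages after KLA, an H3K27ac ChIP-seq contrast with 2 libraries on each side. The members are the genomic regions whose tags differed by more than 2-fold with a Benjamini-Hochberg adjusted p below 0.05 in edgeR's quasi-likelihood test. With tags scaled to each library's total, 1894 of the 25197 regions tested were called, of 29767 regions in the table, and 450 of the 1894 were called in the same direction once the libraries were also centred on their typical region. The 4 libraries belong to a table of 8 and to a series of 100 samples in 50 groups.

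All 8 libraries came from bone marrow-derived macrophages of adult C57BL/6 mice, grown in M-CSF and serum-starved before treatment. The controls, written flox below, were Pgc1b fl/fl, and the deleted cells, written Cre below, were Pgc1b fl/fl LysM-Cre, so that both genotypes carried the floxed alleles and only Cre macrophages carried the recombinase. LysM-Cre places the recombinase in the lysozyme gene Lyz2, so that it is made in myeloid cells, and deletion may be incomplete in a culture. Each genotype was left with vehicle (Veh) or given KLA, Kdo2-lipid A, for 6 h. The labels call the ChIP replicates biological without saying whether they came from separate animals or cultures, so the p-values measure the spread between these libraries. Regions were 1000 bp windows on chromatin that was open in vehicle-treated wild-type macrophages, per the header of the table, so a site that opens only after KLA was not measured.

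H3K27ac, acetylation of lysine 27 on histone H3, marks active promoters and enhancers, and its level at an enhancer tends to follow the activity of the bound coactivators and deacetylases. PGC1b (gene symbol Ppargc1b) is a coactivator without a DNA-binding domain of its own, known for raising mitochondrial and lipid-oxidation genes with ERR and PPAR nuclear receptors. KLA is the lipid A core of lipopolysaccharide and activates TLR4, which leads to NFkB and MAP kinase signalling. The corepressor NCoR and its deacetylase partner HDAC3 are known for removing acetyl groups at sites they repress. The authors report that after TLR4 activation both join PGC1b in a coactivator complex, in which HDAC3 is kept from deacetylating this mark.

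The sequences below are of the regions on which the results turn, shown so that the motif letters can be read beside the tags. Those for Tpcn2, Gpnmb, Mt2, Mif and Clec5a are the 200 bases just upstream of the RefSeq start on the gene's strand, and those for Soat1, Slc17a5, Grn and Klf9 are the central 200 bases of the region on the + strand, all in GRCm38, the mm10 build of the table. Capitals mark every match, on either strand, to the letters searched, which were TGANTCA (AP-1), GGGAANNNC (NFkB), CGGAAG (ETS), GAGGAAGT (PU.1), TGACGTCA (CRE), AAGGTCA (ERR site), GGGCGG (Sp), GCCAAT (the CCAAT box), CACGTG (E-box), GAAANNGAA (interferon response), TTGCNNAA (C/EBP), TCACATGA and TCACGTGA (TFE), and the NRF1 motif. The E-box letters lie within TCACGTGA, and no other motif holds another whole. The first 5 belong to regions with less H3K27ac in Cre macrophages given KLA.
Tpcn2 (chr7:145284012-145284211, - strand): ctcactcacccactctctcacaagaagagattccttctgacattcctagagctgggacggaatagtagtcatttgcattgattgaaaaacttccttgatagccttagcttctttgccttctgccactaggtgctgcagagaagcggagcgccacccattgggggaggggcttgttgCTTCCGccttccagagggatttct
Gpnmb (chr6:49036318-49036517, + strand): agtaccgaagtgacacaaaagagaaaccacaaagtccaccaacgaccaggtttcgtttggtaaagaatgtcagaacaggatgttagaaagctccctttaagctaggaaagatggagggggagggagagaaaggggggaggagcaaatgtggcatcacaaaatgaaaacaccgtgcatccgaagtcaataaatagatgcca
Soat1 (chr1:156468676-156468875, + strand): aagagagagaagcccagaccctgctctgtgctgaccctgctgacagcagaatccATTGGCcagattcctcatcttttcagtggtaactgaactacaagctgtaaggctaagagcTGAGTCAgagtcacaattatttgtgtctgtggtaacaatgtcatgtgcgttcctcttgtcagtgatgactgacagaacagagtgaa
Slc17a5 (chr9:78588602-78588801, + strand): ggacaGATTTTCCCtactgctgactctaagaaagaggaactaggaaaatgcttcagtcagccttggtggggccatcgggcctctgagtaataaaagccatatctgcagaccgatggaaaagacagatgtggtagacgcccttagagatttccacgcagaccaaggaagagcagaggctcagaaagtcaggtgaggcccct
Grn (chr11:102429201-102429400, + strand): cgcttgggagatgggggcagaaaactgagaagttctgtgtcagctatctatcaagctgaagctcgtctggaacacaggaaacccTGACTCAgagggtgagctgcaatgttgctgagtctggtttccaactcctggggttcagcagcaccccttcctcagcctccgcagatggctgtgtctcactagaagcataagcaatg

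The next 4 belong to regions with more H3K27ac in Cre macrophages given KLA.
Klf9 (chr19:23134919-23135118, + strand): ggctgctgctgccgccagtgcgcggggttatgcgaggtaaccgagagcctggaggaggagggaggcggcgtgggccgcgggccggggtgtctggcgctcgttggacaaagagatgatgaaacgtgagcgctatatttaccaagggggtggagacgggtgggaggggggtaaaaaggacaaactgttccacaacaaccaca
Mt2 (chr8:94172418-94172617, + strand): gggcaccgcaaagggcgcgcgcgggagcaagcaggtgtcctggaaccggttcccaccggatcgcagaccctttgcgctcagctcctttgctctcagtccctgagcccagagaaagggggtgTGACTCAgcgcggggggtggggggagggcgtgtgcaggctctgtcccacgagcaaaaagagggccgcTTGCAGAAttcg
Mif (chr10:75860278-75860477, - strand): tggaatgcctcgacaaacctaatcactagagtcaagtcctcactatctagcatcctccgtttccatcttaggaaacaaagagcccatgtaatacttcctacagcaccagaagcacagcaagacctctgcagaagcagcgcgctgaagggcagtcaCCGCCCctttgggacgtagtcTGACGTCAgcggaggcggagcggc
Clec5a (chr6:40585806-40586005, - strand): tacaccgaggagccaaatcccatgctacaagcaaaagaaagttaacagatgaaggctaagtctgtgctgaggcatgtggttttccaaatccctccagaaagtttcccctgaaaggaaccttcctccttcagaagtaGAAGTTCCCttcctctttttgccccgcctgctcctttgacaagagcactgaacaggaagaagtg

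The AP-1 letters stood in the windows of Soat1, Grn and Mt2, and the NFkB letters in those of Slc17a5 and Clec5a. The Mif window held the CRE and Sp letters, the Mt2 window also the C/EBP letters, the Tpcn2 window the ETS letters and the Soat1 window also the CCAAT box. Of the central 200 bases of all 25197 regions tested, which match the Soat1, Grn, Slc17a5 and Klf9 windows, 16.3% held the AP-1 letters, 16.6% the NFkB letters and 9.90% the CCAAT box. Of the 200-base windows upstream of 32505 RefSeq starts, which match the others, 5.47% held the AP-1 letters, 13.5% the NFkB letters, 1.48% the CRE letters, 31.3% the Sp letters, 12.2% the ETS letters and 7.50% the C/EBP letters. The Klf9 window, intergenic in the table, overlapped an exon of the long non-coding RNA 2410080I02Rik in the reference annotation, and no motif searched matched in it or in the Gpnmb window.

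The 8 libraries held between 13.8 and 17.8 M (mega) tags each. The share of tags inside the regions was 35.8% and 35.9% in the flox Veh libraries, 31.6% and 30.9% in Cre Veh, 29.9% and 30.1% in flox KLA, and 22.4% and 22% in Cre KLA. The Cre KLA libraries thus had the lowest share in regions, and they also had the fewest regions without any tag, 372 and 341 against 951 and 974 in flox KLA. A genuine fall of acetylation across the genome and a lower yield of the precipitation in both Cre KLA libraries cannot be told apart from these values, so calls are given with library totals and also after TMM centring, which sets the typical region to no change. The regions of the macrophage markers summed to 7697 and 7870.5 tags in flox KLA and 4726 and 4684 in Cre KLA, per 10 M tags of the library, and to 6539 to 7399 in the vehicle libraries. With library totals 11 of the 27 macrophage marker regions were lower with KLA (median log2 difference -0.64) and 0 higher, and after centring 3 were lower. Of the 27 regions, 5 were at Lyz2, which holds the Cre insertion, and they include some of the 11. The Lyz2 first-exon region is among the 3. The dendritic markers summed to 383 and 445 in flox KLA and 428 and 418 in Cre KLA, with 0 of 7 regions called (median 0.12). B and T cell markers had no tested region. As the regions were those open in wild-type macrophages, this absence does not show which cells were in the cultures. NK, neutrophil, mast, erythroid and stromal markers summed to 155 or less in each library. The part of cell composition in the results was not tested. The only region tested at Ppargc1b, at its promoter, did not pass the test with KLA (log2 difference 0.04 ± 0.31, SE, adjusted p = 0.941, edgeR), and a histone mark at the promoter does not check the deletion itself.

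With library totals, H3K27ac was lower in Cre than in flox macrophages at most regions after KLA. The median log2 difference over the 25197 regions was -0.38, and it lay between -0.40 and -0.37 in each of the 4 pairings of a Cre with a flox library. Of the regions tested, 1717 were lower, or 6.81%, and 177 were higher, or 0.702%, which together made the 7.52% called. After TMM centring the median became 0.01, and of the 2.98% called 478 were higher (1.9%) and 273 lower (1.08%). All 273 regions lower after centring were also lower with library totals, and all 177 regions higher with library totals were also higher after centring. These 273 lower and 177 higher regions, called under both scalings, are the ones described most closely below.

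The lower and the higher regions differed in how much of the mark they carried. The median region among the 273 lower ones had 118 and 117 tags per 10 M in the flox KLA libraries and 40.4 and 39.7 in Cre KLA. In the same regions the Veh libraries had 146 and 152 in flox and 152 and 144 in Cre, so the low values belonged to the Cre KLA libraries alone. The median higher region had 5.51 and 5.58 in flox KLA, 17.3 and 15.6 in Cre KLA, 19.1 and 17.3 in flox Veh and 20.6 and 19.9 in Cre Veh. There the low pair was flox KLA, and the Cre KLA libraries stayed near the level of the vehicle libraries. Both sets were chosen by these KLA values, so the gap between their KLA medians follows from the choice. A region could also be tested through the Veh libraries alone, and with only the 4 KLA libraries 109 regions were higher.

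When the regions were ranked by their mean level over the 8 libraries and divided into 8 equal groups, 70 and 59 of the 177 higher regions fell in the lowest and the next group and 0 in the top 2 groups. The median difference went from 0.05 in the lowest group to -0.47 in the highest, a drift that the plot of difference against level shows. The 273 lower regions were spread over all groups, with 3 in the lowest, 29 in the next and 56 in the highest. The more negative difference at stronger regions moves with the lower share of tags in regions of the Cre KLA libraries, and the part of that lower share in the calls was not tested.

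**Figure D1:**
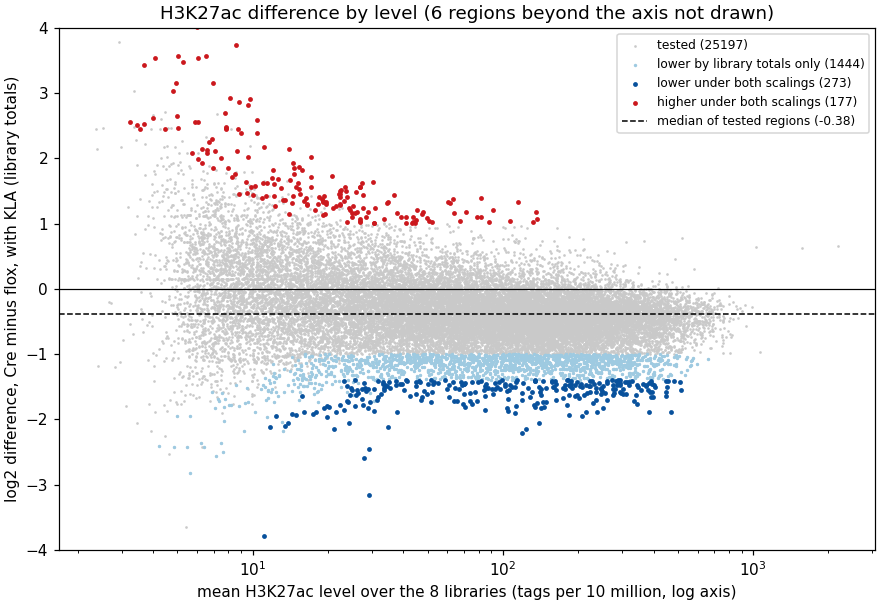
Each point is a tested region, with its mean level over the 8 libraries in tags per 10 M on a log axis. The other axis is the log2 difference of Cre against flox macrophages given KLA, scaled by library totals. Dark blue and red points are regions lower and higher under both scalings, and light blue points are lower with library totals only. The 6 regions beyond the axis are not drawn. The 177 higher regions lie mostly at low levels and the 273 lower ones at all levels, around a median of -0.38.

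The difference between genotypes was smaller without KLA. With Veh, 100 of the 25197 regions were called with library totals (0.397%), of which 73 were lower (0.29%) and 27 higher (0.107%), and 37 after centring (0.147%), with a median log2 difference of -0.20. The test of the difference between the genotype effects with KLA and with Veh, the interaction of genotype and KLA in edgeR, was passed by 1352 regions (5.37%), of which 1158 had a lower (4.6%) and 194 a higher (0.77%) genotype difference with KLA than with Veh, and after centring 583 had a lower (2.31%) and 353 a higher one (1.4%). Of the 273 lower regions, 248 passed this test in the lower direction, and 218 did so after centring, whereas 2 were called lower with Veh. Of the 177 higher regions, 59 passed it in the higher direction (77 after centring), 8 were called higher with Veh and 1 lower. The interaction uses the same KLA libraries as the comparison that chose these regions, so the counts describe them and give no separate evidence.

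The changed regions lay mostly away from promoters. Of the 273 lower regions 207, or 75.8%, were more than 2000 bp from the nearest start, and of the 177 higher ones 141, or 79.7%, against 60.4% of all regions tested. Introns held 45.8% of the lower regions and 35.6% of the higher ones (36.5% of all), intergenic sequence 37.7% and 48.0% (27.8% of all), and promoters 12.5% and 10.7% (31.0% of all). Both sets had a median GC content of 50% in their central 200 bases, against 52.5% over all regions. Overlapping regions made 268 separate loci of the 273 lower regions and 167 of the 177 higher ones, nearest to 228 and 151 genes. Of the higher regions 17 were annotated as satellite or ribosomal RNA repeats or listed with genes of such repeats, of 61 such regions tested, and none (0) of the 273 lower ones was.

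The strongest fall by p-value was at the promoter of Tpcn2, which encodes an ion channel of endosomes and lysosomes. The region, chr7:145283528-145284528, had 668 and 722 tags per 10 M in flox Veh, 430 and 480 in flox KLA, 572 and 651 in Cre Veh and 131 and 115 in Cre KLA. The Cre KLA libraries lay far below the other 6, a 3.71-fold fall against flox KLA (log2 difference -1.89 ± 0.09, SE, n = 2 and 2, adjusted p = 6.07e-77 in edgeR, -1.50 after centring). With Veh the genotypes differed by -0.18 on the log2 scale (adjusted p = 0.0604).

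Of the genes at these regions, Tpcn2 was on the lysosome list and Soat1 on the LXR and cholesterol list used below, while Gpnmb, Slc17a5, Grn and Rab7b were on none. At the first exon of Gpnmb, a glycoprotein of macrophage lysosomes and cell surface (chr6:49036160-49037160), the tags per 10 M were 622 and 635 in flox Veh, 429 and 419 in flox KLA, 625 and 596 in Cre Veh, and 126 and 145 in Cre KLA. The first 3 groups were at 419 or more and Cre KLA was at 145 or less, a log2 difference of -1.64 ± 0.09 (adjusted p = 7.26e-60, edgeR). Slc17a5 encodes sialin, the lysosomal exporter of sialic acid, and its promoter region chr9:78588202-78589202 had 484 and 515 tags per 10 M in flox KLA against 165 and 186 in Cre KLA (log2 difference -1.50 ± 0.09). Upstream of Grn, the gene of the lysosomal and secreted protein progranulin (chr11:102428801-102429801), the values were 436 and 484 against 163 and 170 (log2 difference -1.47 ± 0.09). The vehicle libraries of both genotypes stood at 468 to 619 at these last 2 regions, near the flox KLA level.

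In the first intron of Soat1, which encodes the enzyme that esterifies cholesterol (chr1:156468276-156469276), flox KLA had 400 and 406 tags per 10 M and Cre KLA 131 and 139. The vehicle libraries held 481 and 531 in flox and 476 and 537 in Cre, and the log2 difference between genotypes was 0.00 with Veh (adjusted p = 0.985) and -1.58 ± 0.10 with KLA. In an intron of Rab7b, a small GTPase of late endosomes (chr1:131690102-131691102), the KLA values were 438 and 478 against 202 and 145, with vehicle values of 617 to 678 (log2 difference -1.41 ± 0.09). At the start of Tbl1xr1, which encodes a subunit of the NCoR and HDAC3 complex (chr3:22076202-22077202), they were 480 and 478 against 181 and 178 (log2 difference -1.42 ± 0.09). A neighbouring intronic window of Tbl1xr1 had a log2 difference of -1.33 with library totals and -0.94 after centring, and the latter is under the 2-fold limit. An intron of the nischarin gene Nisch (chr14:31188361-31189361), a cytoplasmic protein that binds integrins, went the other way with KLA in flox, from 524 and 539 with Veh to 725 and 716, and was at 235 and 256 in Cre KLA (log2 difference -1.55 ± 0.08).

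The other 4 of the 12 lower regions with the smallest p-values were far from the genes listed with them, or had genes of little known role. They were an intronic window nearest to Gm15569 (log2 difference -1.43 ± 0.08) and intergenic windows nearest to Dppa3 (-1.65 ± 0.10), 1110002J07Rik (-1.59 ± 0.10) and BC005537 (-1.58 ± 0.10). In each of these 12 regions both Cre KLA libraries were below all 6 others, as the plot of the lower regions shows. No call among the 12 was lost on leaving out any 1 of the 4 KLA libraries.

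**Figure D2:**
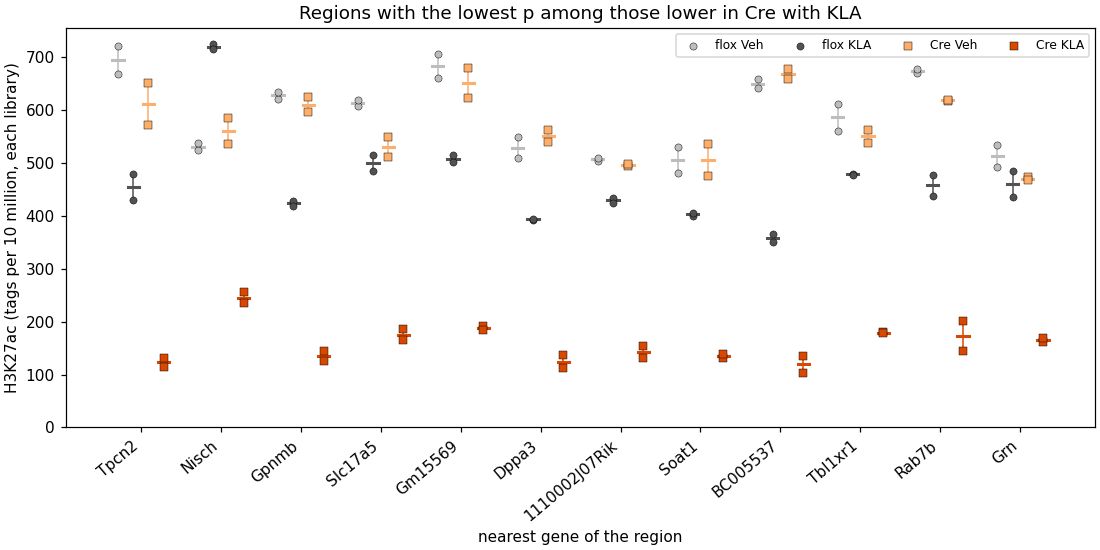
H3K27ac tags per 10 M in each of the 8 libraries (points, 2 for each group) at the 12 lower regions with the smallest p-values among those called under both scalings, named by nearest gene. At Tpcn2 the Cre KLA libraries are at 131 and 115 and flox KLA at 430 and 480, and at all 12 regions both Cre KLA points are the lowest.

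The region with the largest rise, in an intron listed with Gm1966 (chr7:106616619-106617619), differed between the genotypes with and without KLA. It had 0 tags in both flox Veh libraries and 0 and 0.62 tags per 10 M in flox KLA, against 67.3 and 88.2 in Cre Veh and 91.0 and 91.8 in Cre KLA. After KLA this was 267 tags in Cre against 1 in flox, a ratio of 297 with a 95% counting interval of 52.8 to 11764, and with Veh 241 tags against 0, at least 83.3-fold higher over a floor of 3 tags in the group. The 4 flox libraries were empty or nearly so, whereas 6 libraries of wild-type macrophages in another experiment of the series had 160 to 315 tags per 10 M there. The flox libraries thus stood apart from wild type as well as from Cre. Whether the flox and Cre mice differ in sequence at this region was not tested. The interaction of genotype and KLA did not pass the test (adjusted p = 0.525).

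Among the other high-ranking rises, both flox KLA libraries were below all vehicle libraries at Klf9, Mt2, Mif, Qpct, Ppfibp1 and 2810442N19Rik. At Clec5a, Ly6c2, Brox, Rn45s and Mir101c they were not, and there both Cre KLA libraries were above all others. The Cre KLA libraries were also the highest at Qpct. At Klf9, which encodes a zinc-finger transcription factor (chr19:23134519-23135519, at -6207 bp from the listed start), flox macrophages went from 198 and 163 tags per 10 M with Veh to 37.4 and 37.2 with KLA, and Cre macrophages from 155 and 142 to 92.5 and 95.1. With KLA the Cre libraries were 2.51-fold higher (log2 difference 1.33 ± 0.19, adjusted p = 1.81e-10, edgeR, 1.72 after centring). The interaction was 1.62 on the log2 scale (adjusted p = 2.38e-09), and 3 of the 6 regions tested near Klf9 were higher under both scalings.

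The promoter of Mt2, a metal-binding metallothionein (chr8:94172156-94173156), had 90.9 and 130 tags per 10 M in flox Veh, 22.7 and 43.4 in flox KLA, 109 and 86.2 in Cre Veh and 76.6 and 95.7 in Cre KLA. The flox KLA libraries were the lowest and differed from each other, and the log2 difference of 1.39 ± 0.22 became 0.99, under the 2-fold limit, without flox KLA replicate 1. The promoter of the cytokine gene Mif (chr10:75859806-75860806) had 49.6 and 36.0 in flox KLA and 103 and 95.1 in Cre KLA, with 87.3 to 135 in the vehicle libraries (log2 difference 1.20 ± 0.20, and 0.99 without flox KLA replicate 2). At the promoter of Clec5a, a myeloid surface lectin (chr6:40585319-40586319), the Cre KLA libraries stood apart as the high ones, at 108 and 98.3 against 37.2 to 57.8 in the other 6 (log2 difference 1.31 ± 0.22, adjusted p = 2.25e-08).

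A distal region nearest to Qpct, a glutaminyl cyclase gene (chr17:79099235-79100235), had 86.3 and 79.4 tags per 10 M in flox KLA, 189 and 187 in Cre KLA and 115 to 156 in the vehicle libraries (log2 difference 1.18 ± 0.15). An intron of Ppfibp1, a liprin gene, had 31.8 and 32.3 against 88.1 and 78.1 (log2 difference 1.37 ± 0.23), and a region nearest to Ly6c2, whose product marks inflammatory monocytes, 46.5 and 48.4 against 113 and 99.6 (1.16 ± 0.21). At Qpct and Ppfibp1 the vehicle libraries lay between the KLA groups or near Cre KLA, whereas at Ly6c2 the flox libraries were low with either treatment, at 29.8 to 48.4. The regions of 2810442N19Rik (1.11 ± 0.22) and Brox (1.18 ± 0.24) lost their calls without flox KLA replicate 2 (0.93) and without flox KLA replicate 1 (0.97).

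Some of the rises fell on repeated sequence, where reads of many copies can be placed on a single copy and the counting could split them. A region of the ribosomal RNA precursor Rn45s had 83.3 and 85.0 tags per 10 M in flox KLA and 163 and 182 in Cre KLA (log2 difference 1.04 ± 0.16, and 0.96 without Cre KLA replicate 2). A region near Mir101c at the end of chromosome 9 had 107 and 99.9 against 229 and 206 (1.07 ± 0.14, and 0.99 without Cre KLA replicate 1), and it was also higher with Veh, by 0.86. At Sfi1 9 of 14 regions were higher under both scalings, 8 of 9 of them losing the call on leaving out a library. Leaving out all such repeat regions left 1874 of the 1894 calls with library totals (158 higher and 1716 lower).

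**Figure D3:**
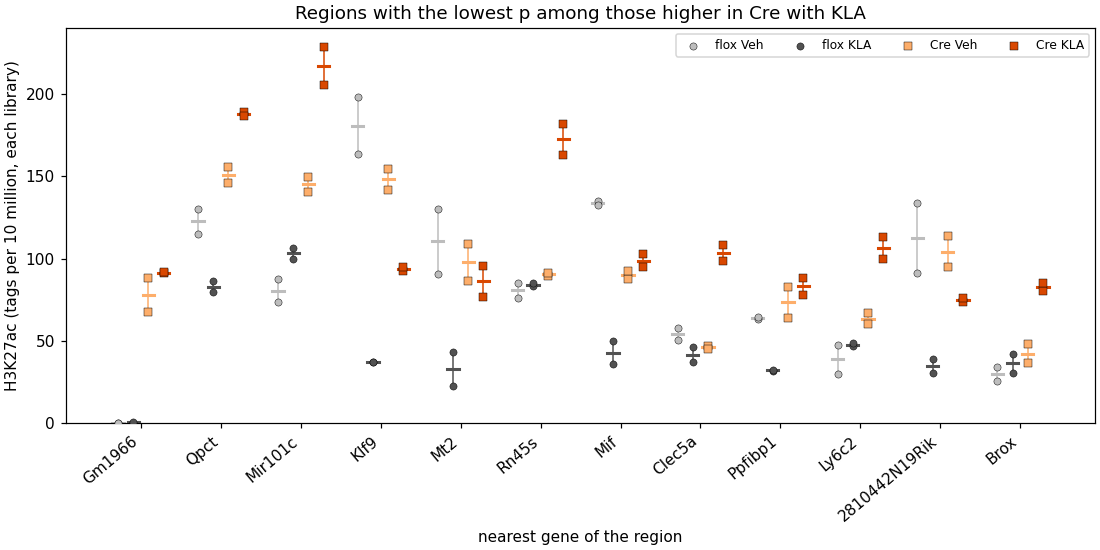
H3K27ac tags per 10 M in each of the 8 libraries (points, 2 for each group) at the 12 higher regions with the smallest p-values among those called under both scalings, named by nearest gene. At Klf9 flox KLA is at 37.4 and 37.2 and Cre KLA at 92.5 and 95.1, while at Gm1966 all 4 flox libraries are near 0.

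Genes were next grouped by function through lists that were chosen with earlier results of these data known, each region being assigned to its nearest gene, and each list was read against the 6.81% of all regions that were lower with library totals and the 1.08% that were lower after centring. Of 827 listed genes, 610 were nearest to a region. With library totals the lysosome and vacuolar ATPase list stood highest, with 25 of its 106 regions lower, or 23.6%. Its median log2 difference was -0.75 against -0.38 over all regions. These 25 regions belonged to 12 of 37 genes, none (0) of the regions was higher, and after centring 4 were lower (3.77%). By this share it did not stand highest after centring. The LXR (4 of 64, 6.25%), macrophage lineage (7 of 151, 4.64%), fatty acid oxidation (1 of 22, 4.55%) and chemokine (2 of 46, 4.35%) lists had larger shares lower, on small counts. Its median after centring, -0.35 against 0.01 over all regions, was still the lowest of these lists, with the PPAR list next at -0.28. With Veh the list's median was -0.05, against -0.20 over all regions, and its regions carried much of the mark, with a median level of 218 tags per 10 M against 74.6 over all.

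In the first intron of Ctsb, the gene of the protease cathepsin B (chr14:63130315-63131315), flox macrophages had 504 and 499 tags per 10 M with Veh and 769 and 768 with KLA, and Cre macrophages 623 and 627 with Veh and 325 and 350 with KLA. The mark thus went up with KLA in flox libraries and down in Cre libraries, with a log2 difference between genotypes of -1.19 ± 0.07 after KLA (adjusted p = 2.6e-51, edgeR, -0.79 after centring) and of 0.32 with Veh. At Tfeb, a transcription factor that drives lysosomal genes (chr17:47768341-47769341), the KLA values were 576 and 567 against 255 and 229 (log2 difference -1.24 ± 0.08, -0.85 after centring). Near Psap, which encodes the precursor of the saposins (chr10:60260230-60261230), they were 317 and 342 against 126 and 132 (-1.35 ± 0.11, -0.96 after centring). At Tfeb and Psap the 4 vehicle libraries, 662 to 701 and 387 to 403, stood above flox KLA whatever their genotype.

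The macrophage lineage list had 30 of 151 regions lower (19.9%) and 1 higher, with a median of -0.55, and 7 lower after centring (4.64%). These counts include regions of Lyz2, which holds the Cre insertion. The falls were not general to the list. The only regions tested at Cebpa, Mertk and Cd14 were not called, at log2 differences of 0.01, -0.08 and -0.27 (0.40, 0.31 and 0.13 after centring). The only Cd68 region was lower, at -1.15 (-0.76 after centring). Itgam encodes the integrin subunit CD11b, and its first intron (chr7:128062963-128063963) had 336 and 387 tags per 10 M in flox KLA against 124 and 126 in Cre KLA, with 277 to 353 in the vehicle libraries (log2 difference -1.53 ± 0.11, adjusted p = 1.95e-40, -1.14 after centring). At the promoter of Fcgr1, the high-affinity IgG receptor gene (chr3:96293465-96294465), KLA took flox libraries from 373 and 306 to 693 and 694, and Cre libraries from 284 and 288 only to 301 and 326 (log2 difference -1.14 ± 0.08, -0.75 after centring). A second Fcgr1 region, with the most tags, had a log2 difference of -0.34, under the 2-fold limit. An intronic region of Csf1r, the M-CSF receptor gene, had 514 and 534 against 271 and 248 (-1.02 ± 0.08), and it lost the call without flox KLA replicate 2 (-0.99) or Cre KLA replicate 2 (-0.95).

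Lyz2, which holds the Cre insertion in the Cre macrophages, needs separate mention. Its first-exon region (chr10:117281648-117282648) had 440 and 409 tags per 10 M in flox Veh, 393 and 398 in flox KLA, 257 and 237 in Cre Veh and 150 and 124 in Cre KLA. The Cre libraries were lower with both treatments, by -0.78 on the log2 scale with Veh (adjusted p = 3.49e-13) and -1.53 ± 0.10 with KLA (adjusted p = 3.23e-44). At this locus the inserted allele and the loss of Pgc1b cannot be told apart. Every Cre library carried the recombinase and no flox library did, and no group had it without the floxed Pgc1b alleles. At the other regions too, effects of the recombinase and of the loss of Pgc1b therefore cannot be told apart.

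Among nuclear receptor and lipid genes, the PPAR and fatty acid handling list had 7 of 38 regions lower (18.4%, median -0.68) and 0 lower after centring, and the LXR target and cholesterol list 7 of 64 (10.9%, median -0.53) and 4 after centring. Nr1h3, the gene of LXR alpha, had a region upstream (chr2:91196546-91197546) with 280 and 286 tags per 10 M in flox KLA, 89.6 and 98.3 in Cre KLA, 301 and 329 in flox Veh and 255 and 238 in Cre Veh (log2 difference -1.59 ± 0.12, adjusted p = 2.61e-34, -1.19 after centring). Npc1, which moves cholesterol out of lysosomes, had overlapping regions in its first intron, of which the stronger had 372 and 424 against 132 and 156 (-1.46 ± 0.10, -1.07 after centring). Cd36, a fatty acid and oxidized-lipid receptor, had 3 intronic regions with log2 differences of -1.33, -1.20 and -1.09 with library totals and -0.94, -0.81 and -0.70 after centring. Lipa, the lysosomal acid lipase gene, had 134 and 145 against 62.1 and 75.5 (-1.01 ± 0.14), a call that was lost without flox KLA replicate 2 (-0.96) or Cre KLA replicate 1 (-0.89).

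Among the mitochondrial lists, whose genes PGC1b is best known for, oxidative phosphorylation had 3 of 71 regions lower (4.23%, median -0.43), the TCA cycle 1 of 29 (3.45%), the mitochondrial ribosome 2 of 62 (3.23%), and mitochondrial biogenesis with ERR and PGC1 partners 3 of 50 (6%, median -0.38), and after centring each had 0 lower. Fatty acid oxidation had 3 of 22 lower (13.6%, median -0.23), with 1 after centring, an intronic region of Echs1, an enzyme of that pathway (chr7:140111683-140112683). It had 62.8 and 86.6 tags per 10 M in flox Veh, 146 and 159 in flox KLA, 87.9 and 106 in Cre Veh and 45.5 and 61.2 in Cre KLA (log2 difference -1.50 ± 0.18, adjusted p = 9.51e-15, -1.11 after centring). The Echs1 promoter had 178 and 189 in flox KLA against 105 and 63.2 in Cre KLA (-1.13 ± 0.15), and the call was lost without Cre KLA replicate 2 (-0.80). Ucp2, which encodes a carrier of the inner mitochondrial membrane, had an intronic region (chr7:100495413-100496413) with 205 and 216 against 83.1 and 77.5 (-1.39 ± 0.14), and after centring it stood at the 2-fold limit.

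The promoter of Mdh1, a malate dehydrogenase gene, had 76.5 and 53.3 tags per 10 M in flox KLA against 28.2 and 34.5 in Cre KLA (log2 difference -1.04 ± 0.23), and its call was lost without flox KLA replicate 1 (-0.76) or Cre KLA replicate 1 (-0.91). Glycolysis and HIF1 genes had 1 of 77 regions lower (1.30%) and a median of -0.16, which was 0.22 above that of all regions. The region was near Ldha, the lactate dehydrogenase gene (chr7:46832916-46833916), with 217 and 208 against 79.5 and 74.2 (-1.47 ± 0.13, -1.08 after centring). NRF2 and antioxidant genes had 0 of 61 lower and 1 higher, a distal region of the cystine transporter gene Slc7a11 with 12.2 and 8.68 against 25.3 and 22.1 (1.17 ± 0.38, and 0.95 without flox KLA replicate 2). Cytosolic ribosomal protein genes had 2 of 71 lower, both intergenic and listed with Rpl34, and each lost its call on leaving out a library.

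**Figure D4:**
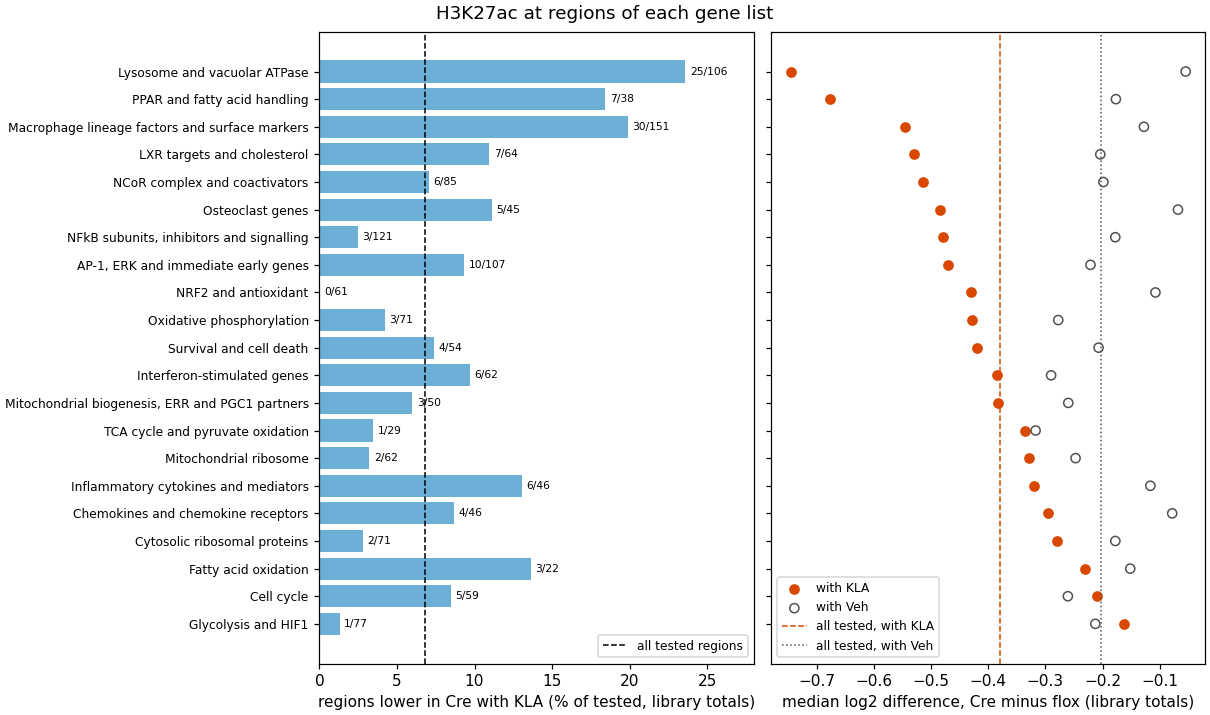
For each gene list, the share of its regions lower in Cre than flox macrophages given KLA and the list median of the log2 difference, scaled by library totals, beside the values of all tested regions. The lysosome list has the highest share, 23.6%, and the glycolysis and HIF1 list a share of 1.30%, against 6.81% of all regions.

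In the inflammatory lists falls were seen at single genes. Inflammatory cytokines and mediators had 6 of 46 regions lower (13.0%, median -0.32) and 1 higher, chemokines and their receptors 4 of 46 (8.70%, median -0.30), and NFkB subunits, inhibitors and signalling genes 3 of 121 (2.48%, median -0.48). After centring the same lists had 1, 2 and 0 lower. Upstream of the chemokine gene Ccl7 (chr11:82041518-82042518) the tags per 10 M were 25.8 and 38.1 in flox Veh, 152 and 165 in flox KLA, 34.9 and 43.8 in Cre Veh and 39.7 and 52.7 in Cre KLA. Only the flox KLA libraries were high there, and Cre KLA stayed near the vehicle level (log2 difference -1.77 ± 0.20, adjusted p = 1.59e-16, -1.37 after centring). The promoter of Ccl2, a monocyte attractant beside Ccl7 (chr11:82035060-82036060), had 71.6 and 96.1 in flox KLA and 21.7 and 32.6 in Cre KLA, with 25.6 to 45.5 in the vehicle libraries (-1.62 ± 0.25, -1.22 after centring).

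In a region of the gene for the anti-inflammatory cytokine IL-10 (Il10, chr1:131020642-131021642) flox KLA had 50.8 and 81.3 tags per 10 M and Cre KLA 19.5 and 28 (log2 difference -1.46 ± 0.26, adjusted p = 1.35e-07, -1.07 after centring). Near Il1rn, which encodes the IL-1 receptor antagonist (chr2:24335010-24336010), flox went from 35.3 and 36.0 with Veh to 192 and 210 with KLA, and Cre from 39.3 and 33.8 to 99.7 and 80.8 (-1.16 ± 0.17, -0.76 after centring). At the promoter of Edn1, the endothelin-1 gene (chr13:42300865-42301865), both flox KLA libraries were at 141 and Cre KLA at 56.3 and 59.3 (-1.29 ± 0.21, -0.89 after centring). At Il1rn and Edn1 the Cre KLA values lay between vehicle and flox KLA.

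AP-1, ERK and immediate early genes had 10 of 107 regions lower (9.35%), with 3 after centring. A distal region near Dusp1, a phosphatase that ends MAP kinase signalling (chr17:26533450-26534450), had 362 to 406 tags per 10 M in the vehicle and flox KLA libraries and 163 and 173 in Cre KLA (log2 difference -1.25 ± 0.10, adjusted p = 4.49e-34, -0.86 after centring). Near Spred1, an inhibitor of Ras and ERK signalling (chr2:117107741-117108741), flox KLA had 154 and 156 and Cre KLA 39.0 and 70.3 (-1.49 ± 0.18, -1.09 after centring). The region upstream of Fos was lower with KLA in both genotypes, at 297 and 290 with Veh and 100 and 95.5 with KLA in flox, and at 255 and 243 with Veh and 41.9 and 48.2 with KLA in Cre (difference between genotypes -1.12 ± 0.17, -0.72 after centring).

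Interferon-stimulated genes had 6 of 62 regions lower (9.68%, median -0.38) and 0 after centring. At Irf7, which encodes an interferon regulatory factor (chr7:141268563-141269563), KLA brought flox libraries from 24.7 and 26.3 tags per 10 M to 319 and 303, and Cre libraries from 38.0 and 18.6 to 150 and 114 (log2 difference -1.24 ± 0.14, -0.85 after centring). At the promoter of the antiviral gene Mx1 (chr16:97462453-97463453) the KLA values were 337 and 330 in flox and 160 in both Cre libraries (-1.06 ± 0.13, -0.66 after centring). At Ifi205 they were 265 and 311 against 139 and 142 (-1.04 ± 0.15), a call lost without flox KLA replicate 2 (-0.91). At all 3 genes the KLA libraries of both genotypes were above the vehicle libraries, with Cre KLA between.

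Genes of the NCoR complex and coactivators had 6 of 85 regions lower (7.06%) and 1 higher, osteoclast genes 5 of 45 lower (11.1%) and 1 higher, the cell cycle list 5 of 59 lower and the survival and cell death list 4 of 54, and after centring these had 1, 0, 1 and 0 lower. Nfatc1, the transcription factor that drives osteoclast formation, had an intronic region with 85.1 and 89.9 against 36.8 and 39.7 (-1.19 ± 0.19, -0.80 after centring). A region upstream of the cyclin D1 gene Ccnd1 (chr7:144941202-144942202) had 56.3 and 49.6 against 17.3 and 19.5 (-1.52 ± 0.25, -1.12 after centring). Regions of Il12a, an IL-12 subunit gene, and of the osteoclast genes Acp5 and Ocstamp were not called, at -0.32 (adjusted p = 0.404), -0.38 (adjusted p = 0.245) and -0.40 (adjusted p = 0.0217).

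Genes with several lower regions under both scalings are few. Hip1, which encodes a clathrin adaptor, had 3 of its 3 tested regions lower, all in the first intron, at -2.05 ± 0.21, -1.74 ± 0.19 and -1.70 ± 0.14. In the strongest of them by size (chr5:135488711-135489711) the tags per 10 M were 213 and 218 in flox Veh, 88.2 and 109 in flox KLA, 228 and 216 in Cre Veh and 24.6 and 22.8 in Cre KLA. Fnip2, a folliculin-interacting protein, had 3 of 7 regions lower, at -1.66, -1.47 and -1.46, and 5031439G07Rik 3 of 7 and Gm826 3 of 13. The other genes with 3 lower regions were Il7r, Irf2bp2, Maf, Plekhg1, Por, Rab7b, Rgl1 and Slc37a2, of which Maf, a macrophage transcription factor gene, had 33 regions tested and Irf2bp2 19. Neighbouring windows of a gene share reads and sequence and are not independent.

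Regions called in the same direction with and without KLA were 16 in all, 8 lower and 8 higher, with library totals. Besides Gm1966 they included regions nearest to Dgkh, Gm4951 and Mir101c. At Dgkh, a diacylglycerol kinase gene, flox had 12.9 and 23.6 tags per 10 M with Veh and 92.5 and 95.5 with KLA, and Cre 10.6 and 4.64 with Veh and 50.6 and 18.9 with KLA (log2 difference -1.45 ± 0.26 with KLA and -1.21 with Veh). The Cre KLA libraries differed from each other more than those of flox, and without Cre KLA replicate 2 the KLA call was lost (-0.89).

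The sets were then set beside the positions of factors mapped by ChIP-seq in wild-type macrophages of the same series. A region was counted where a peak of the factor lay within 500 bp of its centre. The peaks of each factor were merged over Veh and KLA, so a peak need not be one present with KLA. Of the 273 lower regions 80.2% had a PGC1b peak, against 60.4% of all regions tested and 50.8% of the 177 higher regions. NCoR peaks lay near 91.6% of the lower, 71.7% of all and 49.2% of the higher regions, HDAC3 peaks near 91.9%, 69.1% and 46.9%, and p300 peaks near 94.1%, 73.6% and 59.3%. The signalling factors followed the same order, with the NFkB subunit p65 at 89.4%, 66.1% and 41.8%, the AP-1 member Fosl2 at 80.2%, 51.7% and 38.4%, and the kinase ERK1 at 71.4%, 49.7% and 28.2%. All 8 factors, PU.1 included (85.3%, 71.9% and 52.5%), thus had a larger share near the lower and a smaller share near the higher regions than near all regions, and the lower regions also had the higher level of the mark (median 113 tags per 10 M, against 74.6 of all and 16.4 of the higher), whose part in these shares was not tested. The Tpcn2 region, the strongest fall by p-value, had only p65 and PU.1 peaks among the 8 factors.

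In the central 200 bases, the AP-1 letters TGANTCA were present in 27.8% of the lower regions and 10.7% of the higher ones, against 16.3% of all regions tested. The C/EBP letters TTGCNNAA were in 15.0%, 11.3% and 10.3%, and the PU.1 letters in 11.7%, 16.9% and 11.2%. Letters typical of promoters were rarer in both sets, with the Sp letters in 10.6% of the lower and 13.0% of the higher regions against 27% of all, and the ETS letters in 8.79% and 6.21% against 14.5%. The NFkB letters (14.7% and 14.1% against 16.6%) and the ERR site (2.56% and 2.26% against 2.94%) were near the share of all regions. The TFE letters TCACATGA, searched after the lysosomal genes had been seen, were in 9 of the 273 lower regions (3.30%) against 1.36% of all. The other form searched, TCACGTGA, was in 0 of the 273 against 0.476% of all. These shares count letters in a window and do not show binding.

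The same regions were measured in other H3K27ac experiments of the series, whose libraries did not choose them. In wild-type macrophages given solvent (DMSO), KLA against Veh had a median log2 difference of -0.67 at the 273 lower regions, -1.11 at the 154 higher regions that could be tested there, and -0.42 over all 24403 matched regions. In that experiment 48.7% of the higher regions were called lower with KLA and 2.60% higher, against 28.4% and 6.72% of all matched regions. Among all regions in the lowest 2 of the 8 level groups, where 129 of the 177 lie, 34.8% were lowered, with a median of -0.70. A separate experiment used Ncor fl/fl macrophages as wild type, and 170 of the lower and 47 of the higher regions could be matched. In it KLA against Veh had a median of -0.16 at the lower and -0.09 at the higher regions. Over all 14025 matched regions the median was 0.09, and in the lowest 2 level groups -0.20. There 4 of the 47 higher regions were lower (8.51%) and 2 higher. Of the 170 lower regions, 19 were lower (11.2%) and 9 higher, against 4.09% and 5.28% of all. The share of higher regions that fell with KLA was thus 48.7% in the DMSO experiment, against 28.4% of all matched regions. In the other it was 8.51%, against 4.09%. The regions of that experiment held 5.55% to 6.70% of the tags of its wild-type libraries, against 22.9% to 31.5% in the DMSO libraries. The part of this in the shares was not tested. With RGFP966, an inhibitor of HDAC3, against DMSO under KLA, 54.5% of the higher regions were raised and 7.79% lowered (median 1.24), against 26.6% and 9.76% of all (median 0.36) and 44.8% in the lowest 2 level groups (median 0.98). The 273 lower regions were raised in 14.3% and lowered in 1.47%, with a median of 0.30. The DMSO and RGFP966 comparisons share the DMSO KLA libraries, and their values for a region are not independent of each other.

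After TMM centring the higher regions had a median of -0.70 for KLA in DMSO and 0.91 for RGFP966, against 0.00 and 0.02 over all matched regions, and the lower regions -0.24 and -0.05. The Klf9 region, for example, had a log2 difference of -3.12 for KLA in DMSO and 2.87 for RGFP966, the Qpct region -1.53 and 2.60, and the Mt2 region -1.57 and 1.76. The Clec5a region had 0.12 and 0.73, and the Mif region 0.14 and -0.25. The NCoR knockout macrophages were Ncor fl/fl LysM-Cre, so that they also carried the recombinase, and their wild type was Ncor fl/fl. For these macrophages given KLA, 170 of the 273 lower and 47 of the 177 higher regions could be matched. The medians against wild type were -0.33 and 0.07, and -0.05 over all 14025 matched regions. In that experiment 4 of the 170 lower regions were lower (2.35%) and 0 were higher, against 0.421% and 0.357% of all matched regions. Its wild-type KLA libraries are also those of the second KLA against Veh comparison above.

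**Figure D5:**
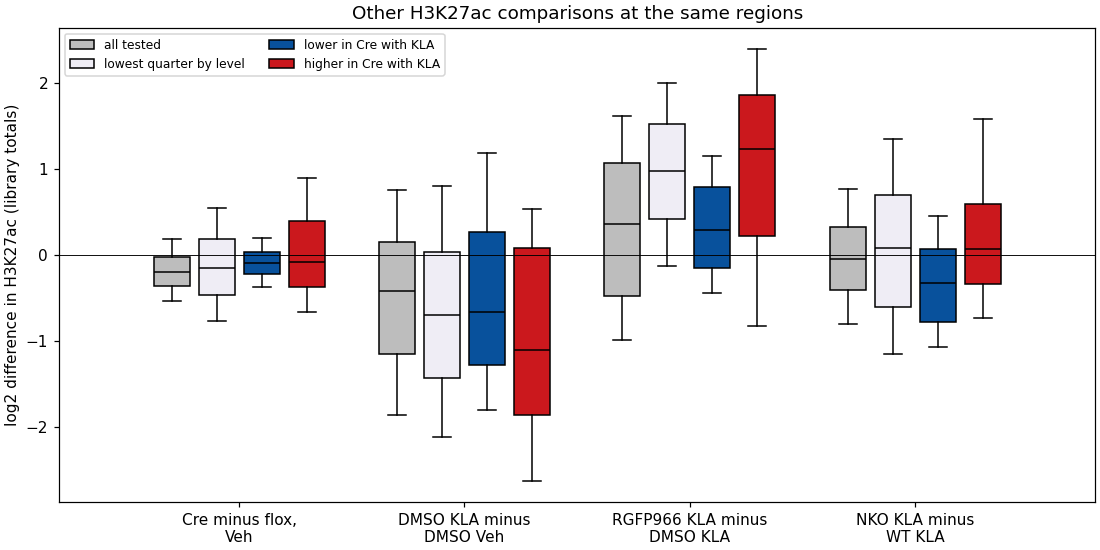
Log2 H3K27ac differences, scaled by library totals, of all tested regions, of the regions in the lowest 2 of the 8 level groups and of the regions lower or higher in Cre macrophages given KLA, for the genotypes with Veh and in other experiments of the series (boxes span the quartiles, lines are medians and whiskers reach percentiles 10 and 90). The higher regions have a median of -1.11 for KLA in DMSO and 1.24 for RGFP966, against -0.42 and 0.36 over all regions.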

How the data were processed

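H3K27ac ChIP-seq tags were analysed in 8 libraries, 4 groups of 2, of bone marrow-derived macrophages. The authors aligned single-end reads to mm10 with Bowtie2 and counted tags with HOMER, and the deposited values are raw tag counts per 1000 bp region, with each library total in the column header (versions not given in the sources used here). Regions with at least 16 tags in 1 or more of the 8 libraries were tested, 25197 of 29767, which left out 4570. The counts of all 8 libraries entered 1 two-sided quasi-likelihood fit in edgeR 4.0.16 under R 4.3.3, with the header totals as library sizes, and the same fit with TMM centring was set beside it. A call needed a Benjamini-Hochberg adjusted p under 0.05 over all regions tested and more than a 2-fold change, and errors are standard errors of the log2 difference. Replicates correlated at 0.964 to 0.973 on the log2 scale and differed by more than sampling noise (chi-square per region 1.88 to 2.31). Same-numbered libraries did not deviate together (correlations -0.016 to 0.008), so numbers were not taken as pairs.

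The comparison, the gene lists and the markers were chosen with earlier results of these data known. Regions were named by rule: the region with the most tags of 6 genes of interest (Ptgs2 and Cp had none listed), the 12 lower and 12 higher regions with the lowest p among those called under both scalings, up to 4 called regions a list, genes with 3 or more such regions, and up to 4 regions called alike with Veh. Genes with 3 lower regions beyond that rule were named after their values were seen. Gene names are the nearest genes in the deposited table. Tables of other experiments hold deposited raw tag counts and were fitted apart, with tested regions matched by centre. The DMSO and RGFP966 table has 29767 regions, matched within 1 bp. The table of the Ncor genotypes has another set of 24867 regions, matched within 500 bp. Sequences are from RefSeq on GRCm38, and 97.7% of 4078 promoter regions lay within 200 bp of a reference start. The fit was tested on simulated data, with DESeq2 1.42.0 among the alternatives. No motif or list was tested for enrichment. Intervals and floors cover counting error only. Tag tables of other conditions were not used here. A region that the rule names is not reported here.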

Additional observations from a re-analysis of the deposited data

Results flagged for a closer look

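The difference between Cre and flox macrophages was not the same with KLA as with Veh at 1352 regions by edgeR's test of the interaction with library totals, of which 1158 had the lower and 194 the higher difference with KLA. The interaction on the log2 scale was -1.71 at Tpcn2, -1.63 at Nisch, -1.60 at Gpnmb and -1.58 at Soat1. It was -1.30 at Slc17a5, -1.35 at Grn, -1.33 at Tbl1xr1 and -1.29 at Rab7b. At the regions nearest to Gm15569, Dppa3, 1110002J07Rik and BC005537 it was -1.36, -1.71, -1.55 and -1.62. Among the higher regions it was 1.62 at Klf9, 1.55 at Mt2, 1.78 at Mif, 1.55 at Clec5a, 1.17 at Ppfibp1 and 1.23 at 2810442N19Rik. Of the 92 other regions named by rule, 54 passed the test with more than a 2-fold interaction, and all 54 were lower with KLA. Most of the named regions were chosen by their calls with KLA, and the interaction uses the same KLA libraries. The values at named regions thus describe them and give no separate evidence. The share of tags in regions, lowest in the Cre KLA libraries at 22.4% and 22%, moves with this difference, and its part in it was not tested.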

How the results depend on the processing

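The balance of higher and lower calls depended on the scaling, although no call changed direction between library totals and TMM. With library totals 1894 regions were called (177 higher, 1717 lower), with TMM 751 (478 and 273), with DESeq2 size factors in edgeR 750 (473 and 277), with DESeq2's Wald test and its own factors 528 (281 and 247), and with its Wald test on library totals 79 were higher. Without a fold minimum 10866 were called (402 and 10464), among promoter regions only 400 (38 and 362), with only the 4 KLA libraries 109 were higher, and among regions of at least 25 tags per 10 M, chosen after seeing the data, 54 were higher (with TMM 471 called, 272 higher). The median of -0.38 became 0.014 with TMM, 0.011 with DESeq2 factors in edgeR and 0.0113 in DESeq2, -0.33 with no filter, -0.40 at distal and -0.36 at promoter regions, -0.40 with only the KLA libraries and -0.42 at regions of at least 25 tags. Leaving out each KLA library in turn gave medians of -0.40 to -0.37 and, with TMM, -0.011 to 0.014, turned without either Cre KLA library (-0.0068 and -0.011).

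Leaving out 1 KLA library gave 1969 to 2210 called regions with library totals (135 to 220 higher, 1749 to 2050 lower) and 730 to 796 with TMM (345 to 484 higher, 280 to 385 lower). Leaving out 1 Veh library gave 75 to 112 calls with Veh, and leaving out any 1 of the 8 libraries gave 1149 to 1427 for the interaction. Veh calls were 3819 without a fold minimum, 37 with TMM and with DESeq2 factors in edgeR and 4 with DESeq2's Wald test, and interaction calls 4653 and 615 without a fold minimum and with DESeq2's Wald test.

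A replicate block, although the numbers share nothing measurable and pair no samples, gave 1886 called (170 higher, 1716 lower), 726 with TMM, 86 with Veh and 1327 for the interaction, and all 116 named regions kept their calls under the block.

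Under TMM 52 of the 116 named regions lost the call and 2 turned, Il12a to 0.075 and Acp5 to 0.011 (0.072 and 0.0085 with DESeq2 factors in edgeR, 0.073 and 0.0061 in DESeq2). Ppargc1b ran from -0.32 to 0.31 over the libraries left out. Under TMM the lower and higher regions were 1 and 2 for inflammatory cytokines, 2 and 1 for chemokines, 0 and 2 for NFkB, 0 and 1 for interferon-stimulated, PPAR and mitochondrial ribosome genes, 0 and 2 for osteoclast genes, and 1 higher for glycolysis. Lower regions under TMM were 3 for AP-1 and ERK, 4 for LXR, 1 for fatty acid oxidation, 0 for the TCA cycle, oxidative phosphorylation, mitochondrial biogenesis and survival, 1 for cytosolic ribosome, NCoR and cell cycle, 4 for lysosome and 7 for macrophage lineage genes.

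The distal share was 69.3% of lower and 72.9% of higher regions beyond 5000 bp, and 75.8% of lower regions under TMM. With peaks within 100 bp, the share of higher regions was below that of all regions by -16.2 percentage points for p65, -14.3 for ERK1 and -9.84 for PU.1. Over the whole region instead of its centre, motif shares of the sets less those of all regions were 3.07 points for AP-1 in higher and -4.87 for interferon response in lower regions, both turned, and, for lower and higher, -13.4 and -12.5 for ETS, -1.27 and -1.24 for CRE, -4.60 and -4.73 for NRF1 and -1.12 and -1.48 for TCACGTGA, with -18.7 for Sp and -2.59 for E-box in higher regions. The causes of these changes were not tested.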
